A study of Mus musculus with 20 samples.

Results

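The genes described here are the enzymes of glycolysis, the transporters and switches that feed or divert their products, and the genes of the response to low oxygen. A list of 36 gene symbols defined them. Of these, 34 had a probe set annotated to that gene alone, out of 18194 genes on the array, and each gene was read from its probe set with the highest mean over 20 arrays. They fell into 14 glycolytic enzymes, 7 genes of fuel transport and flux switches, 3 genes of oxygen sensing and 10 other targets of the hypoxia-inducible factor (HIF). Gpi1 and Eno1 had no probe set of their own in the annotation and were not analysed here, and the gene listed as Ero1l was matched under its current symbol Ero1a. Gapdh was read from 1 of the 3 control probe sets that the manufacturer places along its transcript, the set at the 5′ end. The cells were CFU-E (colony-forming units erythroid, committed red cell progenitors) from fetal livers of BALB/c mouse embryos at embryonic day 13.5, freed of TER119-positive and other blood cells with antibodies and magnetic beads. In the series with Epo (erythropoietin, 0.5 U/ml, the hormone that these progenitors depend on), 12 arrays covered 0 to 8 h hourly and then 14, 19 and 24 h. The series without Epo had 8 arrays, hourly from 0 to 7 h. The labels give 2 accounts of the time before stimulation, a starvation of 1 h following the sort and a culture in Epo. With 1 array per treatment and time, and no label saying whether times were cultured apart, every p-value rests on how far arrays of neighbouring hours scatter, and that scatter may be technical.

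Glycolysis splits glucose into pyruvate through a chain of enzymes in the cytosol. Hexokinases trap glucose as glucose 6-phosphate, phosphofructokinase commits the sugar to breakdown, and lactate dehydrogenase turns pyruvate into lactate so that the chain can go on without oxygen. HIF is a transcription factor whose alpha subunit is hydroxylated by the prolyl hydroxylases encoded by Egln1 and Egln3 and then destroyed when oxygen is plentiful. In low oxygen the subunit persists and binds the core letters ACGTG or GCGTG near many of the genes below. Mature red cells lack mitochondria and live on glycolysis, while their precursors lose mitochondria only at the end of maturation.

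Promoter windows are shown for genes that moved in different ways in these arrays, to set the core letters beside those patterns. Windows of 300 bases, from 250 before to 50 after an annotated start, were taken from RefSeq on the build GRCm38.p6, and 31 of the 34 genes had one. At least 1 core (ACGTG or GCGTG on either strand, thus also CACGT or CACGC, overlaps allowed) lay in a window of 30 of those 31 genes, or 96.8%, against 59.3% of 14453 array genes with a window. Tpi1 was the gene without one. The letters ACGTG alone lay in 24 of the 31 (77.4%), against 26.1% of the array genes. Among enzymes 13 of 14 held a core, and among the other HIF targets 8 of 8. The genes had been listed as glycolytic or hypoxia genes, so these shares describe the list, and a match is not a binding site. In the sequences below, written 5′ to 3′ on the strand of the gene, capitals mark the core letters. Hk2 (chr6:82774405-82774704, minus strand) and Pgk1 (chrX:106186850-106187149, plus strand) are enzyme genes whose level dropped faster without Epo than with it. Bnip3 (chr7:138909457-138909756, minus strand) was higher throughout the series with Epo, and P4ha2 (chr11:54100674-54100973, plus strand) was lower there.
Hk2: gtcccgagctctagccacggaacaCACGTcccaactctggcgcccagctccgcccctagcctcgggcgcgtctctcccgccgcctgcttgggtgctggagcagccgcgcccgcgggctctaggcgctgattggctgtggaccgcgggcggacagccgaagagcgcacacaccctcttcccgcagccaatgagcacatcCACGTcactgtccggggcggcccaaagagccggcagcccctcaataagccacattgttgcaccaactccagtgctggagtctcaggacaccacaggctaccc
Pgk1: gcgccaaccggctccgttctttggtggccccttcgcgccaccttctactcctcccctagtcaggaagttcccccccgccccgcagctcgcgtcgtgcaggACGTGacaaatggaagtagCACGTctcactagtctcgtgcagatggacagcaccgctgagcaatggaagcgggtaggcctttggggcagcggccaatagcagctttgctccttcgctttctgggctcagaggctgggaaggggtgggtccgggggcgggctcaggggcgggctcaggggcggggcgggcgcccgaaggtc
Bnip3: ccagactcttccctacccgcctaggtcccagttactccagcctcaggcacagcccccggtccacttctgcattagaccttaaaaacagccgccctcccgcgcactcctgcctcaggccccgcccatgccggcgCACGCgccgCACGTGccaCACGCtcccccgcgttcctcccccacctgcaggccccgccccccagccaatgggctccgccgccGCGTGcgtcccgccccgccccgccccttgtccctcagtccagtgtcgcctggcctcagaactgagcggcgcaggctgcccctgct
P4ha2: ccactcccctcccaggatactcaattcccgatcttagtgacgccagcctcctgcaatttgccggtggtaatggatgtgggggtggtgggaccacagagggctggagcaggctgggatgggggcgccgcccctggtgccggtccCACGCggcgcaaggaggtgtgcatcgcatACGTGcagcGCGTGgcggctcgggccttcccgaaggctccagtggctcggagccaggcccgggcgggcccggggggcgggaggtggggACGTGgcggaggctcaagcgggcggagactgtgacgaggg
The windows hold 2, 2, 5 and 4 cores in this order, so genes with opposite differences between the series all carry these letters. In Bnip3 the letters CACGTG count as ACGTG on both strands.

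The arrays were alike in spread, except that of 24 h with Epo, whose standard deviation over genes was 2.31 against 2.42 to 2.58 on the others. The actin control differed by 0.999 between its 3′ and 5′ ends at 2 h with Epo, against 0.393 to 0.706 elsewhere. Calls that changed when either time was left out are therefore given below. Erythroid markers were bright on average over 0 to 7 h. The mean over 10 markers was 9.03 to 9.63 with Epo and 9.38 to 10.44 without. Among them the globin gene Hba-a1 was dim on every array, at 3.19 to 3.80. Kit was at 6.99 at 0 h and 5.00 at 7 h with Epo, and at 8.39 and 8.08 without. Hepatocyte markers were bright on average too, with a mean over 11 markers of 7.89 to 10.30 with Epo and 7.04 to 8.998 without. All 11 fell over 0 to 7 h in both series, 9 of 11 were higher with Epo over 1 to 7 h, and their mean was 5.00 at 24 h. The series differed before stimulation as well. At 0 h, 2 of the 34 genes were at least 1 higher on the log2 scale in the series with Epo (2.4% of all genes were) and 2 were at least 1 lower (0.632% of all genes). These were Ndrg1 at 1.25 and Aldoc at 1.17 on the higher side, and Slc16a1 at -1.12 and Hk2 at -1.09 on the lower side. Over the 34 genes the median difference at 0 h was -0.26, against -0.01 for all genes, and 25 of 34 lay below 0. In these bulk samples fewer cells of a type and less RNA per cell cannot be told apart.

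Without Epo, most glycolytic enzymes fell over the first 7 h. On the probe sets used, all 14 had a slope below 0, and 11 of 14 passed the test (limma with Benjamini-Hochberg adjustment across the 18194 genes and a threshold of 0.05, which defines a called gene below), with none higher. The median slope of the 14 was -0.14 on the log2 scale per hour, against 0.00 for all genes. Over the 34 genes 19 were lower (15.4% of all genes were) and 3 higher (13.3% of all genes). In the same arrays 5 of 10 granulocyte markers fell, to -0.50 per hour for Mpo, 11 of 11 hepatocyte markers fell and 6 of 10 erythroid markers rose. The 3′ minus 5′ difference of the controls also moved, with actin at 0.394 at 1 h and 0.621 at 7 h and Gapdh at -0.143 and 0.085 without Epo. With Epo actin was at 0.629 and 0.606 and Gapdh at -0.171 and -0.124 at these hours. The part of these markers and controls in the slopes and in the changes of the difference below was not tested. Hexokinase 2 (Hk2), the inducible isoform of the first step, was at 7.93 at 0 h and 5.89 at 7 h without Epo, a slope of -0.32 ± 0.04 per hour (SE, 8 arrays, limma adjusted p = 5.17e-05). Its levels dropped at each of the 7 hourly steps. Hk1, the constitutive isoform, was at 9.99 at 0 h and 8.85 at 7 h, with a slope of -0.20 ± 0.03 per hour (limma adjusted p = 0.000119). The phosphofructokinase subunit genes Pfkl, Pfkm and Pfkp had slopes of -0.25, -0.23 and -0.24 per hour. For Pfkl the direction depends on the probe set, since a dimmer set gave 0.095 per hour (limma adjusted p = 0.0304), called in the opposite direction.

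Further down the pathway the falls without Epo were smaller and varied more. Pgam1, which shifts the phosphate of 3-phosphoglycerate, fell by 0.19 per hour, and Pgk1, which makes the first ATP of the chain, by 0.17 per hour. Tpi1, Ldha, Gapdh and Aldoa fell by 0.11, 0.08, 0.08 and 0.04 per hour. Ldhb, Aldoc and Pkm did not pass the test, at -0.07, -0.05 and -0.04 per hour. Ldhb passed it without 2 h (limma adjusted p = 0.0461) or 7 h (0.0263), and Pkm without 0 h (0.0397). Among the transporters, the lactate exporter Slc16a3 had the steepest slope of all 34 genes on the lower side, -0.36 ± 0.05 per hour (SE, limma adjusted p = 0.000286), with 8.26 at 0 h and 5.95 at 7 h. The lactate and pyruvate carrier Slc16a1, the glucose transporter Slc2a3 and the pyruvate dehydrogenase kinase Pdk3 each fell by 0.09 per hour. The Slc16a1 call was lost under 10 of 16 alternatives, with -0.06 without 0 h (limma adjusted p = 0.24), and that of Pdk3 was lost without 5, 6 or 7 h (0.0529, 0.0729 and 0.122). That of Aldoa was lost under 7 of 15.

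Of the 10 other HIF targets, 3 rose without Epo (13.3% of all genes did) and 3 fell (15.4% did), and their median slope was 0.02. Ndrg1, a gene induced by stress, differentiation and hypoxia, was at 6.19 at 0 h, 5.81 at 1 h, 8.45 at 3 h and 9.04 at 7 h, a slope of 0.50 ± 0.08 per hour (SE, limma adjusted p = 0.000387). P4ha2, a subunit of the collagen prolyl hydroxylase, was at 4.28 at 0 h and 5.91 at 7 h with a slope of 0.30 ± 0.06. Both climbed most between 1 and 4 h. Ero1a, an oxidase that helps proteins fold in the endoplasmic reticulum, rose by 0.14 per hour. Bnip3, which drives the removal of mitochondria and cell death, had 9.45 at 0 h and 7.67 at 7 h, a slope of -0.27 ± 0.03 (SE, limma adjusted p = 2.11e-05). Ankrd37 fell by 0.24 per hour and Higd1a, a mitochondrial protein of the inner membrane, by 0.15. Vegfa, Adm, Bhlhe40 and P4ha1 had slopes of 0.00 to 0.04 and none was called. For Vegfa this depends on the probe set, since a slightly dimmer set fell by 0.09 per hour and was called (limma adjusted p = 0.0117). Hif1a and Egln1 were not called either, at -0.09 and 0.06 per hour, while Egln3 fell by 0.13 from a dim level of 3.58 at 0 h.

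**Figure D1:**
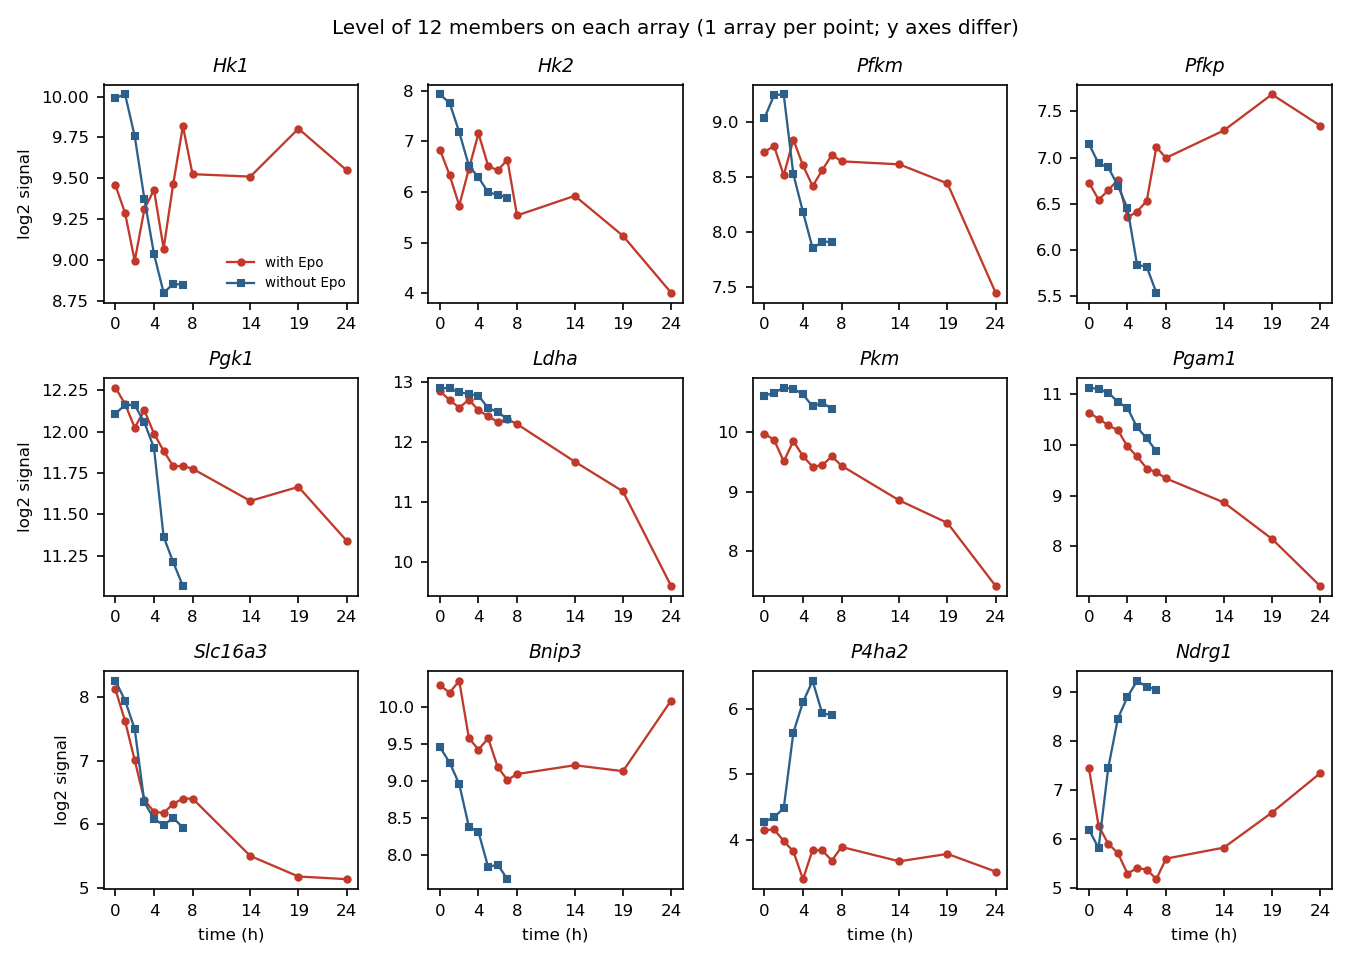
Log2 signal (y axis) of 12 genes against time in hours (x axis), 1 array per point, with Epo as red circles and without Epo as blue squares. Hk1, Hk2, Pfkm and Pfkp start lower with Epo and end higher at 7 h, Ndrg1 and P4ha2 climb over 1 to 7 h without Epo and not with it, and Pgam1, Pkm and Ldha decline to their lowest levels at 24 h.

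With Epo, fewer of these genes were called over the same hours, and so were fewer of all genes. Of the 34, 12 fell (5.88% of all genes did) and none passed the test upward (2.21% of all genes did), although 3 had a slope above 0 at an unadjusted p under 0.05. Ero1a, at 0.15 ± 0.04 per hour, missed the threshold at a limma adjusted p of 0.0523 and passed it after quantile normalization, after median centring, among the brighter genes alone, and without 3 h or 7 h. The enzymes that fell were Pgam1 at -0.18, Tpi1 at -0.13, Aldoc at -0.12, Aldoa at -0.08, and Pgk1 and Ldha at -0.07 each. The Aldoc call was lost on its other probe set (-0.03, limma adjusted p = 0.618) and without 0, 6 or 7 h (0.154, 0.0648 and 0.129), and the Aldoa call without 0 h (0.153) or 6 h (0.0622). Pkm was not called at -0.06 (limma adjusted p = 0.117) but passed the test without 2 h, at -0.07 (0.0356). None of the hexokinase and phosphofructokinase genes was called with Epo, and their slopes lay between -0.07 for Pfkl and 0.05 for Hk1. Pgam1, Tpi1, Pgk1, Ldha and Aldoa were thus called lower in both series. Among the other genes Ndrg1 fell by 0.26 per hour, Slc16a3 by 0.25, Ankrd37 by 0.22, Bnip3 by 0.20, Pdk1 by 0.11 and Egln3 by 0.10. Egln3 lost its call under 9 of 16 alternatives, and Pdk1 without 0 h (limma adjusted p = 0.0646). For Ndrg1 the call was lost with a probe set that has no suffix letter, where the slope was -0.11 (limma adjusted p = 0.226).

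**Figure D2:**
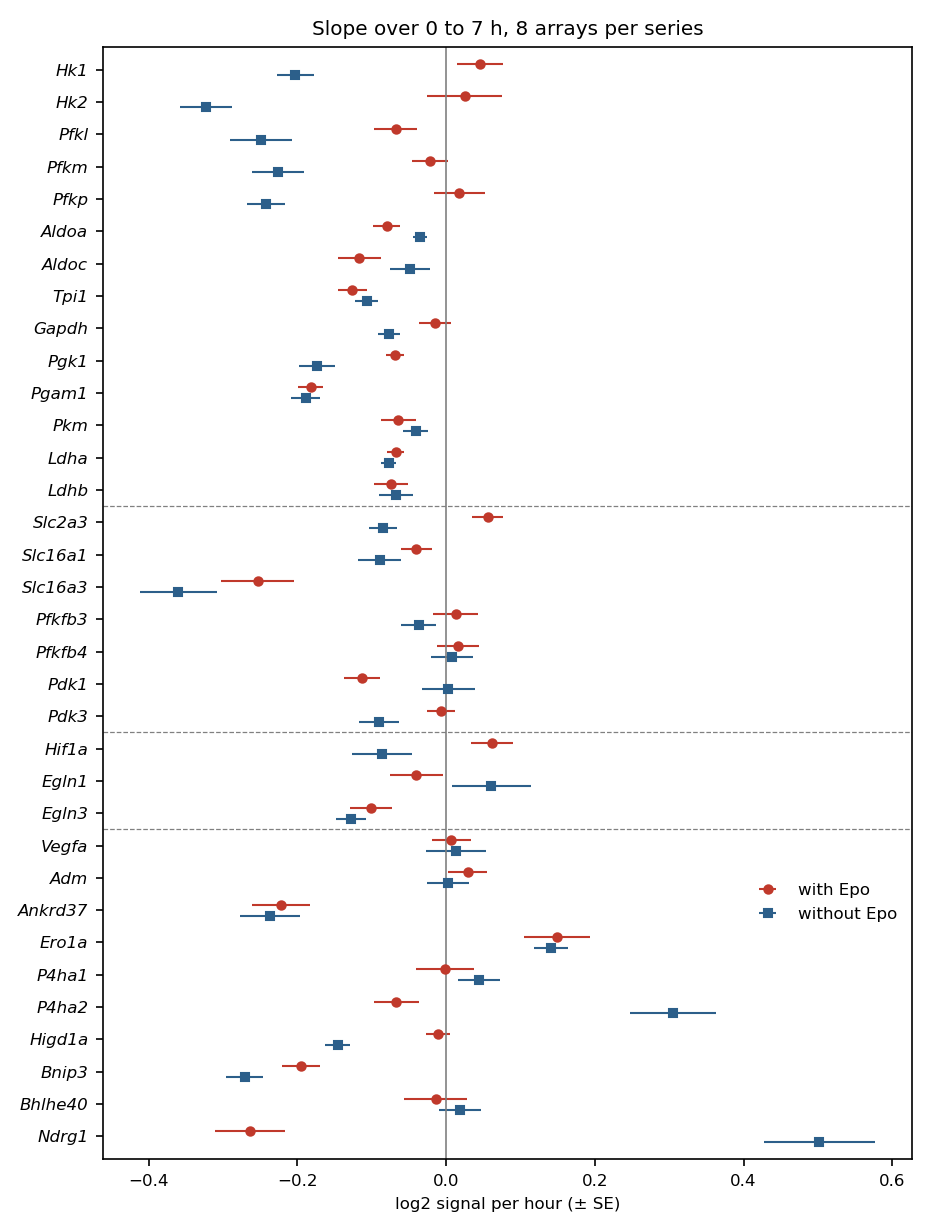
Slope of log2 signal per hour over 0 to 7 h (x axis, ± SE, 8 arrays per series) for each gene (y axis), with Epo as red circles above and without Epo as blue squares below, with dashed lines between enzymes, fuel transport and switches, oxygen sensing and other HIF targets. The 14 enzymes all lie below 0 without Epo, while Ndrg1 and P4ha2 lie at 0.50 and 0.30.

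The difference between the series (with Epo minus without) was then regressed on time over 1 to 7 h, which asks whether the series drew apart. This comparison uses the same arrays as the slopes, so each set of values is given side by side and not as separate evidence. For 11 of the 34 genes the difference grew toward the series with Epo (7.26% of all genes did), and for 3 it grew the other way (7.97% of all genes did). Of the 14 enzymes, 7 grew and 0 went the other way, with a median of 0.07 per hour against 0.00 for all genes. Of the 10 other HIF targets, 1 grew and 2 went the other way. Without the arrays of 2 h the counts over the 34 were 7 and 1, and without those of 6 h the first was also 7. Gapdh, Slc2a3, Slc16a3 and Pdk3 left the first count in both cases.

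Hexokinase 2 had the largest growth. At 1 to 7 h it had a lowest, median and highest level of 5.73, 6.45 and 7.16 with Epo and of 5.89, 6.29 and 7.76 without. The ranges overlapped because the order of the series turned within them. The matched difference was -1.42 at 1 h and -1.45 at 2 h, -0.07 at 3 h, and 0.87, 0.52, 0.48 and 0.75 at 4 to 7 h. Its growth was 0.39 ± 0.08 per hour (SE, 7 matched differences, limma adjusted p = 0.00235), against a mean difference over those hours of -0.05.

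Hk1 behaved alike, with levels of 8.99, 9.31 and 9.82 with Epo and 8.80, 9.04 and 10.01 without (lowest, median and highest). Its difference was -0.73 at 1 h and 0.97 at 7 h, and grew by 0.29 ± 0.04 per hour (SE, limma adjusted p = 0.000125). The 3 phosphofructokinase genes crossed too. Pfkp grew by 0.30 ± 0.05 per hour (SE, limma adjusted p = 0.000981), with differences of -0.39 at 1 h and 1.58 at 7 h. Pfkm grew by 0.24 and Pfkl by 0.22 per hour, with differences at 7 h of 0.79 and 0.32. For Pfkl this rests on the probe set, since another set, dimmer with a mean of 5.07, gave -0.02 per hour (limma adjusted p = 0.884).

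As a fixed pattern, lower with Epo at 1 and 2 h and higher at 5, 6 and 7 h, the crossing was found in 7 of the 34 genes, against 6.03% of all genes. These were Hk1, Hk2, Pfkl, Pfkm, Pfkp, Slc16a3 and Pdk3, that is 5 of 14 enzymes and 0 of 10 other HIF targets. The pattern was defined after the matched differences had been seen. At 0 h the 5 enzymes were already lower in the series with Epo, by 0.30 for Pfkm to 1.09 for Hk2.

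Pgk1 grew by 0.14 ± 0.02 per hour (SE, limma adjusted p = 0.000883), with differences of -0.14 at 2 h, 0.07 at 3 h and 0.73 at 7 h. Gapdh, Slc16a3, Slc2a3, Higd1a and Pdk3 grew by 0.11 to 0.14 per hour. The Gapdh call was lost under 6 of 15 alternatives, among them the mean of its probe sets (0.092, limma adjusted p = 0.0655). On the other side, the difference of Ndrg1 went down by 0.66 ± 0.10 per hour (SE, limma adjusted p = 0.000629) and that of P4ha2 by 0.36 ± 0.09 (limma adjusted p = 0.00978, but 0.0974 without 1 h and 0.0548 without 2 h). Pdk1, another pyruvate dehydrogenase kinase, went down by 0.14 per hour. Its call was lost under 7 of 15 alternatives, among them median centring (limma adjusted p = 0.0638) and each fit without 2, 3, 5, 6 or 7 h (0.0542 to 0.164). Pdk3 lost its call under 7 of 15 as well. Of 10 granulocyte markers 3, Mpo, Prtn3 and Ctsg, also grew in difference. The other 7 were not called, and 3 of the 10 had a change below 0. Over 0 to 7 h the lowest and highest array means of the list were 4.66 and 5.20 with Epo. They were 4.76 and 6.13 without, where the lowest was that of 7 h. None of the 11 hepatocyte markers was called in this comparison. The part of either list in the result was not tested.

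**Figure D3:**
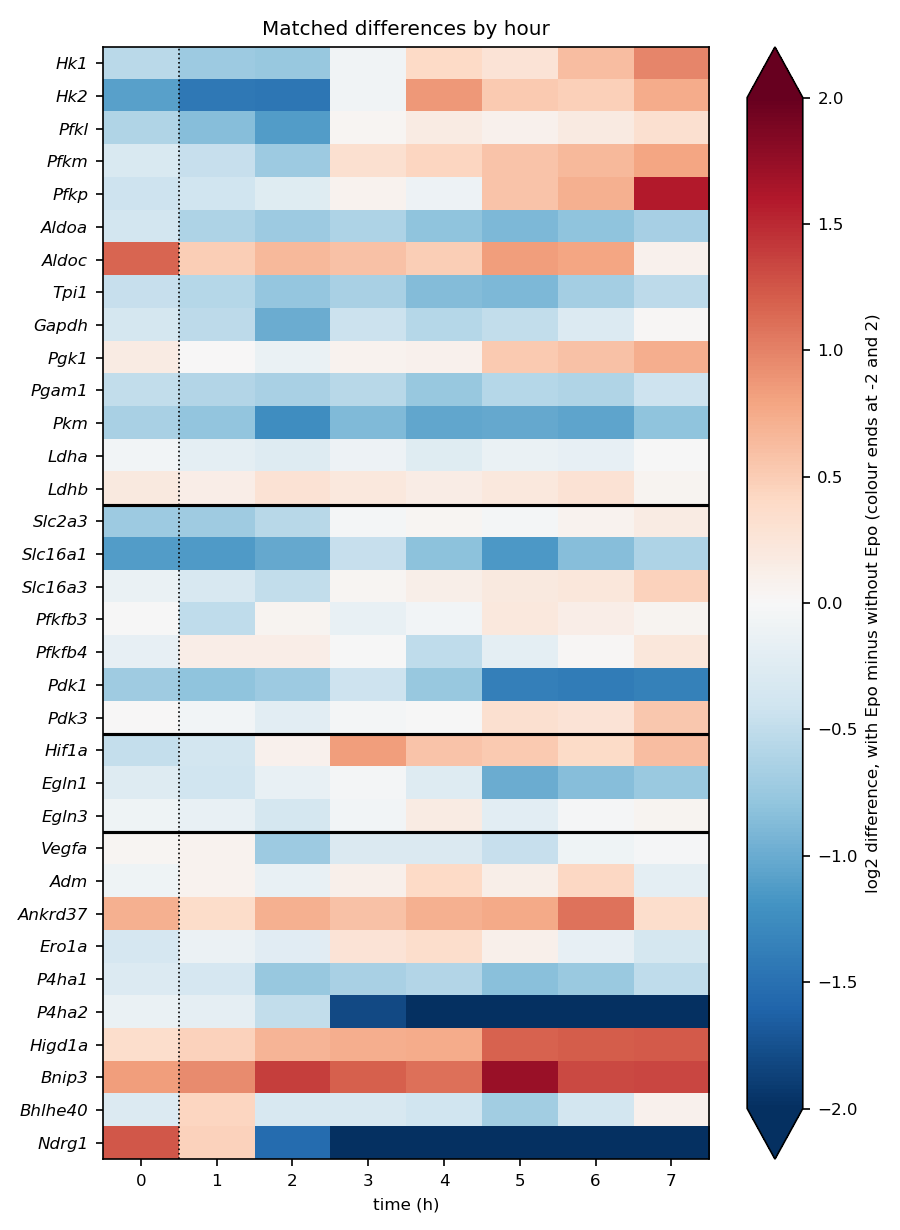
Log2 difference, with Epo minus without, at each matched hour from 0 to 7 h (x axis) for each gene (y axis), red where the series with Epo is higher and blue where it is lower, with colour ending at -2 and 2. Lines part the enzymes, fuel transport and switches, oxygen sensing and other HIF targets, and the first 5 rows are blue at 0 to 2 h and red at 5 to 7 h.

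Averaged over 1 to 7 h, the level with Epo was lower for 12 of the 34 genes (20.2% of all genes) and higher for 5 (18.2% of all genes). The median difference was -0.06, against 0.03 for all genes. Of the 14 enzymes, 6 were lower and 1 higher. Pyruvate kinase Pkm, the last energy-yielding step, had a lowest, median and highest level of 9.42, 9.60 and 9.87 with Epo and 10.40, 10.64 and 10.76 without. The ranges did not overlap, and the difference of -0.98 ± 0.08 (SE, 7 pairs, limma adjusted p = 4.28e-06) was a 1.97-fold lower level. Aldolase A (Aldoa) had 11.27, 11.41 and 11.66 with Epo and 12.06, 12.20 and 12.27 without, also without overlap, a difference of -0.73 ± 0.06 (SE, limma adjusted p = 3.4e-06). Tpi1 lay at -0.71, Pgam1 at -0.59, Gapdh at -0.47 and Ldha at -0.16, and their ranges overlapped. The Ldha call was lost under 5 of 16 alternatives, among them no time block (limma adjusted p = 0.166), no variance trend (0.09) and without 4 h (0.0614). Aldolase C (Aldoc), a dim gene with a median of 4.25 with Epo and 3.65 without, was the enzyme that was higher, by 0.56 ± 0.09 (SE, limma adjusted p = 0.000575). Pgk1 was not called, at 0.27 ± 0.10 (SE, limma adjusted p = 0.0629). It passed the test as higher without 1 h (0.31, limma adjusted p = 0.0401), without 2 h (0.33, 0.0271) and after quantile normalization (0.26, 0.0497).

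The genes that did not overlap between the 7 and 7 arrays were few: 1 of the 34 on the higher side (6.56% of all genes) and 5 on the lower side (7.31% of all genes). Beside Pkm and Aldoa these were Slc16a1, Pdk1 and P4ha2, and on the higher side Higd1a. Slc16a1 had 10.37, 10.46 and 10.73 with Epo and 11.07, 11.30 and 11.87 without, a difference of -0.87 ± 0.09 (SE, limma adjusted p = 2.38e-05). Pdk1 had 7.93, 8.10 and 8.60 with Epo and 8.81, 9.33 and 9.45 without, a difference of -0.97 ± 0.13 (SE, limma adjusted p = 0.000148). Both genes were already lower at 0 h, by 1.12 and 0.71. Slc2a3, Slc16a3, Pfkfb3, Pfkfb4 and Pdk3 were not called, with mean differences of -0.15 to 0.12.

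In oxygen sensing, Hif1a, the oxygen-regulated subunit, was higher with Epo, and Egln1, the main hydroxylase that marks it for destruction, was lower. Hif1a had 7.84, 8.44 and 8.54 with Epo and 7.70, 7.87 and 8.50 without, a difference of 0.38 ± 0.14 (SE, limma adjusted p = 0.0458). The ranges overlapped, the sign at 0 h was opposite at -0.48, and the call was lost under 10 of 17 alternative settings, with adjusted p from 0.0029 to 0.625 over all of them. Egln1 had 6.90, 7.14 and 7.47 with Epo and 6.96, 7.83 and 8.22 without, a difference of -0.49 ± 0.13 (SE, limma adjusted p = 0.0108), with its largest matched difference of -0.99 at 5 h. The Egln1 call was lost on the mean of its 2 probe sets (-0.34, limma adjusted p = 0.0605). Its ranges overlapped as well, and its difference at 0 h was already -0.25. Egln3, which HIF itself induces, was dim in both series with medians of 3.04 and 3.10 and was not called at -0.08. These are mRNA levels, and HIF-1 alpha is regulated mainly as a protein.

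Of the 10 other HIF targets, 3 were lower (20.2% of all genes were) and 3 higher (18.2% of all genes). Their differences held the widest range of the classes, from -2.69 to 1.29. Ndrg1 had 5.18, 5.41 and 6.27 with Epo and 5.81, 8.89 and 9.22 without, a difference of -2.69 ± 0.45 (SE, limma adjusted p = 0.000645), or 6.45-fold lower. The series overlapped at 1 h, where Ndrg1 was still 0.45 higher with Epo, and stood 3.86 apart at 7 h. P4ha2 had 3.40, 3.84 and 4.16 with Epo and 4.35, 5.91 and 6.42 without, a difference of -1.73 ± 0.28 (SE, limma adjusted p = 0.000521). With Epo it stayed dim at every hour, and the ranges did not overlap. Its sister subunit P4ha1 was lower by 0.63 ± 0.09 with 6.02, 6.19 and 6.76 with Epo and 6.66, 6.87 and 7.27 without.

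Bnip3 had the largest positive difference of the 34. It had 9.01, 9.57 and 10.35 with Epo and 7.67, 8.31 and 9.25 without, and all 7 pairs were higher with Epo, by 0.94 to 1.73. The difference of 1.29 ± 0.10 (SE, limma adjusted p = 3.86e-06) was 2.44-fold, and it had been 0.83 at 0 h. Higd1a had 11.05, 11.20 and 11.34 with Epo and 9.82, 10.39 and 10.72 without, a difference of 0.89 ± 0.10 (SE, limma adjusted p = 4.89e-05). Ankrd37 was higher by 0.65 ± 0.10. Both had been higher at 0 h, by 0.36 and 0.72. Vegfa, the vessel growth factor, was not called at -0.26 ± 0.11 (SE, limma adjusted p = 0.0846), whereas its second, slightly dimmer probe set gave 0.48 and was called (limma adjusted p = 0.00799), so its direction depends on the probe set. Adm, Ero1a and Bhlhe40 were not called at 0.11, -0.02 and -0.23.

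Hepatocyte markers were higher in the same arrays in 9 of 11 genes, with a median difference of 0.89 over 1 to 7 h and 1.40 at 0 h. Erythroid markers were lower in 6 of 10. Their part in the differences above was not tested.

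The sign of the called differences was also read at 0 h. Of the 17 genes called over 1 to 7 h, 15 had the same sign at 0 h and 14 had the same sign in all 7 pairs. The 2 with the opposite sign at 0 h were Hif1a and Ndrg1. This was not counted over all called genes, so it is not known whether these 17 differ from them. With each gene's own 0 h difference subtracted, no gene of the 34 was called by limma and 12 of all genes were, although 1 of the 34 was higher and 3 were lower at an unadjusted p under 0.05. This subtraction leans on a single pair of arrays. With a linear drift of the differences also allowed, Ndrg1 was called at -3.93 ± 0.58 (SE, limma adjusted p = 0.00365), alone among the 34, where 2.39% of all genes were called lower and 1.34% higher. Higd1a and P4ha2 came next at 0.53 and -1.60, with limma adjusted p of 0.0555 and 0.0824. Aldoc, Slc16a1 and Ankrd37 changed sign after the subtraction, at -0.61, 0.25 and -0.06.

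**Figure D4:**
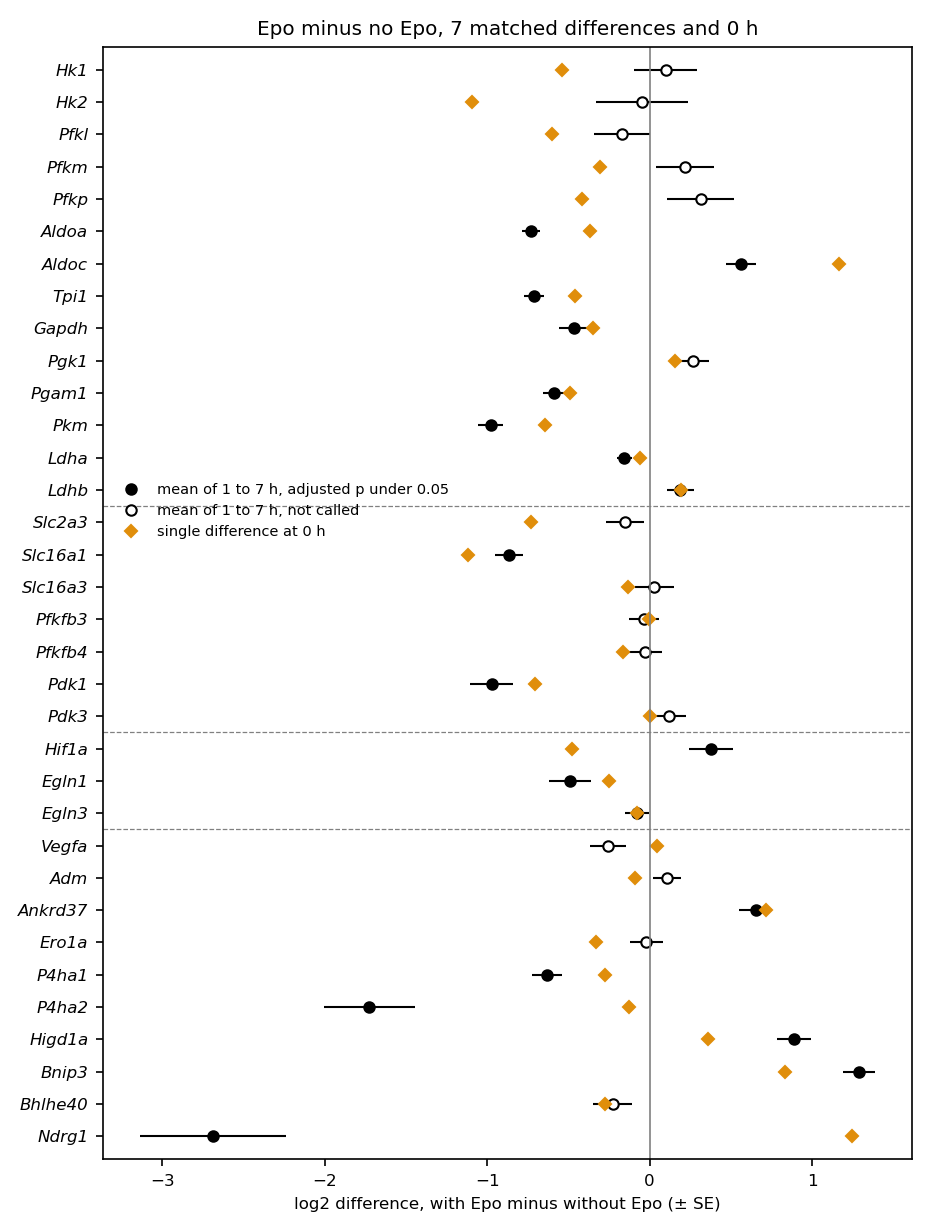
Log2 difference, with Epo minus without (x axis), for each gene (y axis): circles give the mean of 7 matched differences at 1 to 7 h ± SE, filled where the limma adjusted p was under 0.05, and orange diamonds the single difference at 0 h. Diamonds and circles lie on the same side of 0 for most filled circles, while those of Ndrg1 lie apart at 1.25 and -2.69.

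At late times with Epo, most of the lower glycolytic chain declined. The arrays of 14, 19 and 24 h were set against those of 1 to 8 h: 13 of the 34 genes were lower (18.5% of all genes) and 2 higher (17.6% of all genes). Of the 14 enzymes 7 were lower and 1 higher, with a median of -0.50 against 0.08 for all genes. After quantile normalization the counts over the 34 were 5 higher and 12 lower, with Hk1, Pdk3 and Pfkfb4 added on the higher side. Without the 24 h array they were 1 higher and 8 lower, and Hk2, Slc16a1, Hif1a, Egln1, Ero1a and Ndrg1 were no longer called. Untreated arrays end at 7 h, so time in culture and Epo cannot be told apart here.

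Pgam1 was at 8.87, 8.15 and 7.22 at 14, 19 and 24 h, against a lowest, median and highest level of 9.34, 9.87 and 10.52 at 1 to 8 h. All 3 late arrays lay below all 8 early ones, and the difference was -1.83 ± 0.31 (SE, limma adjusted p = 0.000379). Ldha, among the brightest genes on the array early on, was at 11.67, 11.17 and 9.60 late, against 12.30, 12.48 and 12.70 early, a difference of -1.68 ± 0.28 (SE, limma adjusted p = 0.000416). Tpi1 was at 10.20, 9.83 and 8.68 late, against 10.77, 11.03 and 11.56 early, a difference of -1.52 ± 0.25 (SE, limma adjusted p = 0.000361). In each of these the level dropped at every late step and most between 19 and 24 h. Pkm was lower by 1.35 ± 0.22, Aldoa by 0.60 ± 0.11 and Pgk1 by 0.41 ± 0.10. The Pgk1 call was lost against 6 to 8 h (-0.26, limma adjusted p = 0.175). Gapdh and Aldoc were not called, at -0.27 and 0.21 (limma adjusted p = 0.0993 and 0.287). Gapdh passed the test without 2 h (-0.31, limma adjusted p = 0.048) or 19 h (-0.39, 0.0451). At 14 and 19 h alone the differences were -1.40 for Pgam1, -1.07 for Ldha, -1.08 for Tpi1 and -0.93 for Pkm.

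Hk2 was lower late, at 5.92, 5.14 and 4.01, against 5.54, 6.44 and 7.16 early, a difference of -1.33 ± 0.35 (SE, limma adjusted p = 0.00853). Its call was lost without 24 h (limma adjusted p = 0.0859) and against 6 to 8 h (0.0963). The array of 14 h lay within the early range. Hk1 was not called (0.26 ± 0.16, SE, limma adjusted p = 0.209), and Ldhb, the isoform that favours pyruvate, was not called at 6.77 to 6.99 (difference -0.09, limma adjusted p = 0.621). For Ldhb this depends on the probe set, since its dimmer sets gave -0.49 to -1.17. The mean of its 4 sets was called lower, at -0.56 (limma adjusted p = 0.0406). Pfkp was the enzyme that rose, at 7.29, 7.69 and 7.35 late, against 6.35, 6.59 and 7.11 early, a difference of 0.77 ± 0.17 (SE, limma adjusted p = 0.0029). Its 3 late arrays lay above all 8 early ones, but 7 and 8 h were already at 7.11 and 7.00, and against 6 to 8 h the call was lost (0.56, limma adjusted p = 0.0995). Pfkl and Pfkm, at -0.54 and -0.46, were not called.

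Outside the enzymes, Slc16a3 fell by 1.29 ± 0.26 (SE, limma adjusted p = 0.00135) and Pdk1 by 1.23 ± 0.29 (limma adjusted p = 0.00444). Without 24 h the Pdk1 difference was -0.66 and still called, and against 6 to 8 h its call was lost (0.0973). Slc16a1 and Egln1 fell by 0.53 and 0.69, and Hif1a and Ero1a by 0.50 and 0.82, against -0.28, -0.45, -0.31 and -0.55 without 24 h, where none was called. Slc2a3 was not called at -0.06, since it was at 8.39 at 14 h and 9.57 at 24 h. Of the other HIF targets, 1 was lower and 1 higher. Ndrg1 was at 5.82, 6.54 and 7.34 late, against 5.18, 5.50 and 6.27 early, a difference of 0.97 ± 0.27 (SE, limma adjusted p = 0.0115, and 0.11 without 24 h). Bnip3 was at 9.21, 9.13 and 10.08 late, against 9.01, 9.50 and 10.35 early, and was not called at -0.07. Vegfa, Adm, Ankrd37, P4ha1, P4ha2, Higd1a and Bhlhe40 were not called, at -0.36 to 0.24. In the same arrays 9 of 11 hepatocyte markers fell, with a median of -3.07, and 6 of 10 erythroid markers rose with 1 falling. Of granulocyte markers 5 of 10 rose and 3 fell, and 3 of 7 megakaryocyte and 4 of 12 macrophage markers rose. Their part was not tested.

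**Figure D5:**
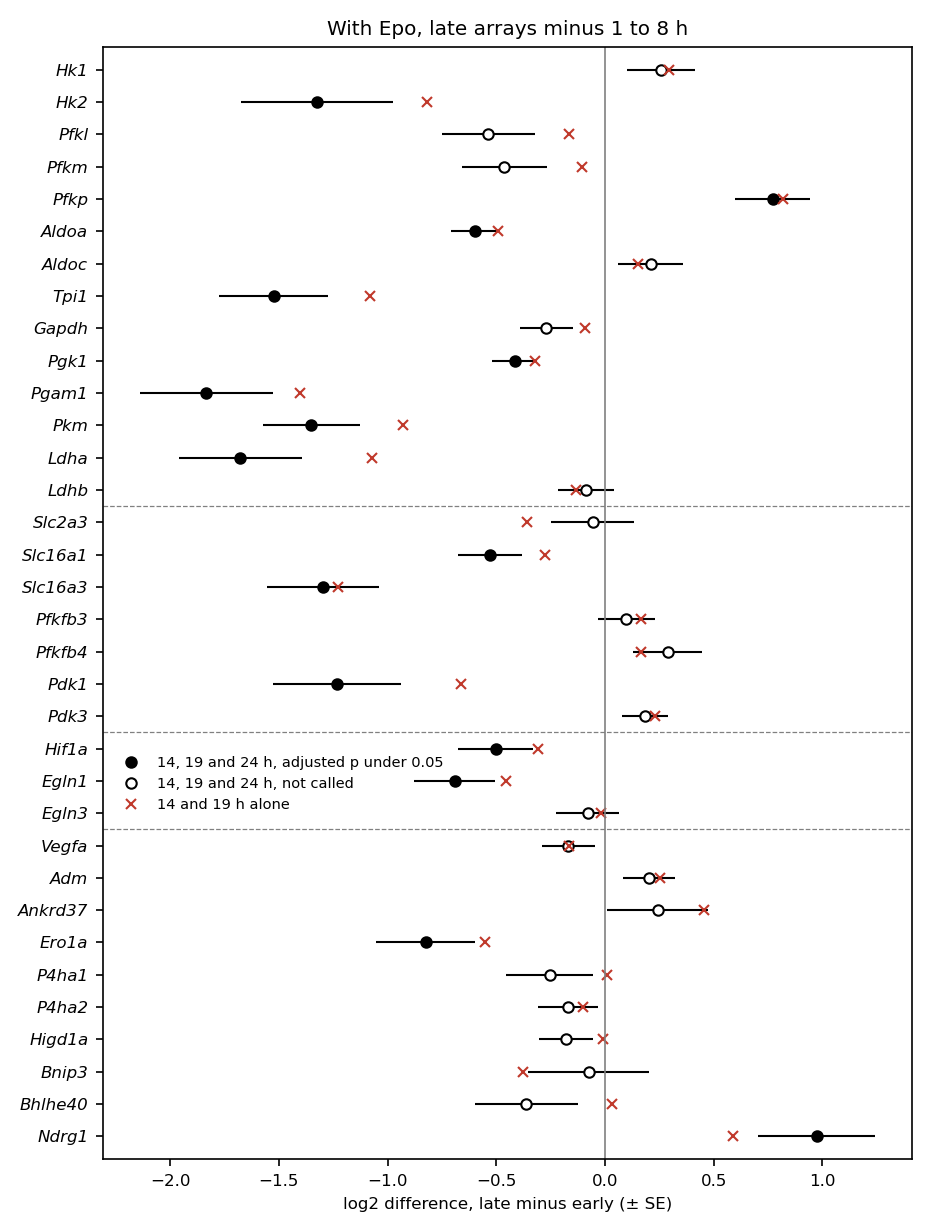
Log2 difference of late minus early arrays with Epo (x axis) for each gene (y axis): circles give 14, 19 and 24 h minus 1 to 8 h ± SE, filled where the limma adjusted p was under 0.05, and red crosses the difference of 14 and 19 h alone. Pgam1, Ldha, Tpi1 and Pkm lie between -1.83 and -1.35, and their crosses between -1.40 and -0.93.

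The courses of the enzymes and the other HIF targets are set side by side here as a description, and the difference between them was not tested. The median difference between the series over 14 enzymes was -0.39 at 0 h, -0.55 at 1 h, -0.73 at 2 h, -0.07 at 3 h and 0.00 at 4 h. It was then 0.15, 0.23 and 0.07 at 5, 6 and 7 h. Over the 10 other HIF targets it was -0.02, 0.22, -0.27 and -0.10 at 0, 1, 2 and 3 h. At 4, 5, 6 and 7 h it was 0.03, -0.18, -0.12 and -0.11. Neither course ran in 1 direction throughout. Relative to their own 0 h, the enzymes stood at a median of -0.43 at 7 h with Epo and -0.88 without, with 12 and 14 of 14 below their start. The other HIF targets stood at -0.06 with Epo and 0.22 without, with 5 and 3 of 10 below. Of all 18194 genes, 9166 with Epo and 9359 without lay below their 0 h level at 7 h. At 24 h with Epo the medians were -1.31 for the enzymes and -0.44 for the other HIF targets, against 0.11 for all genes.

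Related genes outside the list gave the following. Of 22 other measured genes of glycolysis and pyruvate use, 8 were lower (20.2% of all genes were) and 5 higher (18.2% of all genes) over 1 to 7 h. Txnip, which restrains glucose uptake, had 6.27, 6.53 and 7.34 with Epo and 10.63, 10.79 and 11.73 without, a difference of -4.36 ± 0.16 (SE, limma adjusted p = 2.37e-07), after 7.58 with Epo and 7.50 without at 0 h. It was thus near equal at the start and apart by 1 h. The glucose transporter Slc2a1 was lower by 0.70 ± 0.08, rose in both series over 0 to 7 h (0.14 per hour with Epo and 0.23 without), and rose by 2.08 ± 0.30 late (SE, limma adjusted p = 0.000138) to 12.75 at 24 h. Late with Epo it thus climbed while Pgam1, Ldha and Tpi1 fell. Pklr, the red cell and liver pyruvate kinase, was lower by 0.72 ± 0.11, and Bpgm, which makes the ligand that lowers the oxygen affinity of hemoglobin, by 0.48 ± 0.14. Late, Bpgm rose by 0.89 ± 0.18 and Pklr was not called at 0.07. The pyruvate carrier subunit Mpc1 and the phosphatase Tigar were higher by 0.92 and 0.75, and Pdk2 was lower by 1.03. At 0 h the levels with and without Epo already stood at 10.983 and 10.316 for Mpc1 and 5.546 and 4.858 for Tigar. For Pklr they were 9.277 and 9.825. They were closer for Pdk2 (4.582 and 4.555), Slc2a1 (9.876 and 10.003) and Bpgm (8.084 and 8.129).

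In the pentose phosphate branch, 3 of 6 genes grew in difference toward the series with Epo and 0 the other way, against 7.26% and 7.97% of all genes. Pgd, which makes NADPH, grew by 0.38 ± 0.03 per hour (SE, limma adjusted p = 4.26e-06), and was at 11.46 with Epo and 9.89 without at 7 h. Taldo1 and Tkt grew by 0.32 and 0.17 per hour, and all 3 rose with Epo while falling without. Late, Pgd fell by 1.26 and Taldo1 rose by 0.81.

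Among 12 other genes of the HIF pathway, 6 were lower with Epo and 1 higher, against the same 20.2% and 18.2% of all genes. The HIF asparagine hydroxylase Hif1an was lower by 1.46 ± 0.15, the coactivator Ep300 by 0.99 ± 0.13 and Vhl, which targets hydroxylated HIF alpha for destruction, by 0.61 ± 0.17. The ubiquitin ligase Siah2 was higher by 0.83 ± 0.15. At 0 h the levels with and without Epo already stood at 6.085 and 6.852 for Hif1an and 7.206 and 8.057 for Ep300. For Vhl they were 6.64 and 6.496, and for Siah2 6.592 and 6.55. Epas1, which encodes HIF-2 alpha, was dim, at 4.00 to 4.25 with Epo and 3.90 to 4.64 without over 1 to 7 h, and was not called at -0.12. Of 29 further hypoxia response genes, 8 were lower and 5 higher, where 20.2% and 18.2% of all genes were. Mxi1 and Ddit4, an inhibitor of mTOR signalling, were lower by 1.45 ± 0.22 and 1.29 ± 0.43, and Fam162a and Insig2 were higher by 1.11 ± 0.11 and 1.00 ± 0.10. At 0 h Fam162a already stood at 11.86 with Epo and 11.276 without, and Insig2 at 7.827 and 7.168. Mxi1 stood at 7.471 and 7.776 there, and Ddit4 at 4.932 and 4.297. Late with Epo, Ddit4 rose by 1.19 ± 0.29, while Selenbp1, Angptl4, Mif and Ak4 fell by 1.90, 1.62, 1.60 and 1.48.

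Further probe sets mostly moved as those used. Of the 17 genes called over 1 to 7 h, 11 had 24 further probe sets, and 22 of 24 had the same direction, the exceptions being a dim set of Slc16a1 and 1 of the Hif1a sets. For the late comparison 24 of 24 had the same direction. The Ndrg1 sets ranged from -2.71 to -0.89, and the 3 Gapdh sets from -0.53 to -0.47. Slc2a3, not called at -0.15, had a pair of dimmer sets at -1.09 (limma adjusted p = 0.000931) and -1.21. Pfkl, at -0.17 and not called, had a dim set at 0.64 (limma adjusted p = 0.00122). On the mean of its 4 sets Ldhb was called higher with Epo over 1 to 7 h, at 0.34 (limma adjusted p = 0.0066). That mean also fell over 0 to 7 h, by 0.22 per hour with Epo (limma adjusted p = 0.00207) and by 0.10 without (0.00125). The sets used for Aldoa, Tpi1, Adm, Slc2a3 and Ndrg1 carry the suffixes _x or _s, which mark possible cross-hybridisation with related transcripts. Those of Aldoc, Hif1a, Higd1a, Hk1, Ldha, Ldhb, Pfkfb3, Pfkl, Pgam1 and Vegfa carry _a, which marks several transcripts of the same gene, and the alternative without suffixes left out both kinds.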

How the data were processed

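The deposited values are log2 expression values per probe set of a mouse 3′ expression array, 1 array per treatment and time, as the authors deposited them, and they span 1.37 to 14.6. The summary method, software and scaling are not given in the sources used here, and no scanner intensities were used. Of 45101 probe sets, 34958 had 1 gene, 932 several and 9211 none in the platform annotation. Symbols were looked up in a RefSeq table of GRCm38.p6, where 34754 probe sets were found and 0 symbols changed. Each gene took its probe set with the highest mean over 20 arrays, which left 18194 genes, and 0 other columns of values were present.

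All tests used limma 3.58.1 in R 4.3.3 (lmFit, eBayes with a variance trend) on the log2 values of all genes, with Benjamini-Hochberg adjustment over all of them and a threshold of 0.05. The comparison of the series over 1 to 7 h had each hour as a block, the 7 matched differences were regressed on the hour to test their change, the slopes used the 8 arrays of 0 to 7 h of each series, and the late comparison set 3 arrays against 8. The fits were tested on simulated data. Tables and figures used Python 3.11.15 with pandas 2.3.3, numpy 2.4.6 and matplotlib 3.10.9. The members and lists were chosen with earlier results of these data known. Full values are given for the called genes with the largest effects, up to 10 per comparison, for a set of named genes including Hif1a, Hk1, Hk2, Ldha, Pgk1, Vegfa and Bnip3, and for up to 4 genes of each related list. Alternatives changed the scaling, the filter on dim genes, the probe set, the variance model, the block, the time window and the handling of 0 h, and left out each time in turn. The number of arrays limits the precision.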

Additional observations from a re-analysis of the deposited data

Results flagged for a closer look

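For 14 genes the difference between the series, with Epo minus without, changed over 1 to 7 h, by limma's test of its slope over the 7 matched differences. The change per hour on the log2 scale and its adjusted p were 0.293 (0.000125) for Hk1, 0.392 (0.00235) for Hk2, 0.219 (0.00616) for Pfkl, 0.242 (0.0022) for Pfkm and 0.299 (0.000981) for Pfkp. They were 0.107 (0.0178) for Gapdh, 0.145 (0.000883) for Pgk1, 0.138 (0.0149) for Slc2a3, 0.14 (0.0337) for Slc16a3, 0.11 (0.041) for Pdk3 and 0.137 (0.00215) for Higd1a. Toward the series without Epo they were -0.141 (0.0428) for Pdk1, -0.359 (0.00978) for P4ha2 and -0.657 (0.000629) for Ndrg1. Over the 8 arrays of 0 to 7 h of each series, no array passed Dixon's critical value for any of the 34 genes.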

How the results depend on the processing

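Of 1327 results for single genes under the alternatives, 1186 kept their direction and call, 133 lost the call and 8 changed sign, and where no cause is shown it was not tested. With the 0 h difference subtracted, 0 of the 34 genes were higher and 0 lower between the series, and 12 of all genes were called, against 6982. With drift also allowed, 0 were higher, 1 was lower and 678 genes were called. Aldoc, Slc16a1 and Ankrd37 changed sign in both, at -0.605, 0.25 and -0.064. Pfkl changed sign with its probe set that has no suffix letter, at -0.024 for the change of the difference and 0.095 for the slope without Epo (adjusted p = 0.0304). For the slope with Epo, 1 gene was higher after quantile normalization, after median centring and among brighter genes, and 6 were lower where only probe sets without a suffix letter were used, which left 27 of the 34 genes. Late, 5 were higher after quantile normalization, 1 was higher against 6 to 8 h and against 0 to 8 h, and against 6 to 8 h 8 were lower and 2896 genes were called. With each time left out, the change of the difference was called for 7 to 11 genes upward, 1 to 3 downward and 1725 to 2695 genes in all. The late counts were 1 to 3 higher, 8 to 16 lower and 4231 to 7255 genes in all, the lowest of each without 24 h. The slope with Epo had 0 to 1 higher, and 914 to 1444 genes in all, the lowest without 6 h.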
